A study of Mus musculus with 12 samples.

Results

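The UDP-glucuronosyltransferase and sulfotransferase genes, which encode major conjugating enzymes of the liver, were examined in whole livers of septic mice. Members were all genes of the table whose symbol starts with Ugt1a, Ugt2a, Ugt2b or Ugt3a and a number, or with Sult and a number, which gave 41 of 25611 genes. Of these 41, 35 had at least 1 read and 24 passed the filter on low counts that 13190 genes passed. The livers came from 12 male C57BL/6J mice, a common inbred strain with no allele named, 8 to 10 weeks old. There were 4 in each of 3 groups, all taken at 30 hr post-surgery. Sham mice had the abdomen opened and closed, CLP mice had cecal ligation and puncture, which lets gut bacteria into the peritoneum, and CLP+DCA mice had the same operation and 25 mg/kg dichloroacetate, an inhibitor of pyruvate dehydrogenase kinase, at 24 hr and thus 6 hr before harvest. Subcutaneous saline was given to every animal. The sample records give an injection at 24 hr and harvest 6 hr later for every mouse, sham and CLP included. The sources used here name no vehicle for the mice without dichloroacetate. CLP versus sham asks what sepsis does to these genes, and the comparisons with CLP+DCA ask what is seen with the drug in septic mice.

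Glucuronosyltransferases are enzymes of the endoplasmic reticulum that move glucuronate from UDP-glucuronate to bilirubin, steroids, bile acids and drugs. Sulfotransferases are cytosolic enzymes that move sulfate from PAPS to phenols, catecholamines, steroids and bile acids. In both cases the product is more soluble in water and leaves the hepatocyte through export pumps into bile or blood. The Ugt1a genes are a single locus in which each transcript joins its own first exon, with its own promoter, to a common set of downstream exons, whereas the Ugt2b and Sult genes are mostly separate genes that arose by duplication.

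Between 24436513 and 44266819 reads per mouse were counted, and the members together took 0.383% to 0.471% of them in sham, 0.0934% to 0.267% in CLP, and 0.341%, 0.279%, 0.0786% and 0.379% in CLP+DCA replicates 1 to 4. CLP+DCA replicate 3 stood apart from its group: across the genes tested its log2 CPM correlated with CLP replicate 2 at r = 0.981 and with the other CLP+DCA mice at 0.921 to 0.931, whereas those 3 correlated with each other at 0.986 to 0.992. It is drawn as an open diamond in the plots, and results are given with and without it. Hepatocyte markers (10 listed, all with reads) summed to 75013 to 96772 CPM in sham, 60134 to 65973 in CLP and 57705 to 73419 in CLP+DCA, and of these only Ass1 was below 1 CPM in every mouse. Within this sum Alb was at 39666 to 58481 CPM in sham and 15323 to 24432 in CLP. Fgb went the other way, at 7169 to 10939 CPM in sham and 13920 to 28678 in CLP. Tdo2 averaged 1154 CPM in sham and 1198 in CLP, and the other genes of the list were lower in CLP by point estimate. The neutrophil list summed to 4.48 to 5.99 CPM in sham and 27.0 to 38.2 in CLP, and to 3.83, 10.6, 51.5 and 4.84 in CLP+DCA replicates 1 to 4, while of its 8 genes Mpo was at most 0.112 CPM, Camp was 0 in every sham mouse, and Ly6g was lower by point estimate in CLP, at 0.669 to 1.04 CPM in sham and 0.269 to 0.701 in CLP. Cholangiocyte markers summed to 34.4 to 43.8 CPM in sham, 62.1 to 96.3 in CLP, and 213 in CLP+DCA replicate 3 against 38.4 to 66.2 in the other 3 mice. Of these 213 CPM Spp1 made up 139 and Sox9 71.0. In the same mouse Krt7, at 1.16 CPM, and Cftr, at 0.298, were also the highest of their group. Krt19, at 0.650 CPM, was the lowest of its group and Epcam, at 0.921, lay within it. Of this list Krt7, Krt19, Sox9 and Spp1 had all CLP mice above all sham mice, and Epcam and Cftr overlapped. Over all genes tested, 12.2% had all CLP mice above all sham mice. The ranges in sham, CLP and CLP+DCA overlapped for Kupffer cell and macrophage markers (145 to 244, 227 to 295 and 191 to 375 CPM), for endothelium (92.6 to 119, 111 to 139 and 88.9 to 132 CPM), for stellate cells (64.4 to 100.5, 93.8 to 349.9 and 79.8 to 199 CPM) and for enterocytes (226 to 485, 247 to 391 and 214 to 389 CPM), whose gene Cdh17 was 0 in every sham and CLP mouse. Within these lists Marco, Pecam1, Lyve1, Des and Dcn had all CLP mice above all sham mice (12.2% of all genes tested did so), and the other genes overlapped. Of the 349.9 CPM of stellate markers in CLP replicate 3, Des made up 172. The part that cell composition has in the results that follow was not tested, and in whole liver fewer hepatocytes and less RNA per hepatocyte cannot be told apart.

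The start regions of 7 members are shown because each Ugt1a transcript has a promoter of its own, because Ugt2b5, Ugt2b36 and Sult2a8 were the most abundant per exon length in sham livers among transferases that share no exon with another, and because Sult1e1 was the member past the filter with all CLP mice above all sham mice. The windows are the 250 bases before the RefSeq gene start on GRCm38.p6 (mm10), written 5′ to 3′ on the gene's strand: Ugt1a1 chr1:88211709-88211958 (plus strand), Ugt1a9 chr1:88070529-88070778 (plus strand), Ugt1a6a chr1:88134559-88134808 (plus strand), Ugt2b5 chr5:87140341-87140590 (minus strand), Ugt2b36 chr5:87092556-87092805 (minus strand), Sult2a8 chr7:14446588-14446837 (minus strand) and Sult1e1 chr5:87591612-87591861 (minus strand). Capitals mark matches, on either strand, to TTGCNNAA, a site of the hepatocyte factors C/EBP, and a window without capitals holds none.
Ugt1a1: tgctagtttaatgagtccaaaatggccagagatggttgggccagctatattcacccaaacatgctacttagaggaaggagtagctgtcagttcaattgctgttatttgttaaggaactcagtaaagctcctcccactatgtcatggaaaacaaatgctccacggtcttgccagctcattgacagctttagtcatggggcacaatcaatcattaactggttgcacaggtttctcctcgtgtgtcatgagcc
Ugt1a9: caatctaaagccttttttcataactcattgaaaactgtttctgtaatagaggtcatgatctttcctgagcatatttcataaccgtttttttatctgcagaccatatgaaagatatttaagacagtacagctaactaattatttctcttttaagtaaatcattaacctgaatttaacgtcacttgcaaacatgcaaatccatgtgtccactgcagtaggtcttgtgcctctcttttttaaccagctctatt
Ugt1a6a: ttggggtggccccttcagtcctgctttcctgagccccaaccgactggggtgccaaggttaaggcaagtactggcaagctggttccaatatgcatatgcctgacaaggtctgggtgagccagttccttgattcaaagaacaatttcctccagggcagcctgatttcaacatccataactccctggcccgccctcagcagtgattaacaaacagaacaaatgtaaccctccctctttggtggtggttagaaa
Ugt2b5: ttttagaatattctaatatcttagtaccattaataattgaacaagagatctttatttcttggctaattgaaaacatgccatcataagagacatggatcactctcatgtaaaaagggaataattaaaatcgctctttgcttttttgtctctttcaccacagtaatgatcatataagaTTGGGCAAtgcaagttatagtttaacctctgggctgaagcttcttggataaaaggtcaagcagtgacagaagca
Ugt2b36: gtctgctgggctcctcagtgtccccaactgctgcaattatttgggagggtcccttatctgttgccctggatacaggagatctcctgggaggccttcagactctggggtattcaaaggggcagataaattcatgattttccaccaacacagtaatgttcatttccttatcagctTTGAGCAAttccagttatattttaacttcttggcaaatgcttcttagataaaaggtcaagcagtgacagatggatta
Sult2a8: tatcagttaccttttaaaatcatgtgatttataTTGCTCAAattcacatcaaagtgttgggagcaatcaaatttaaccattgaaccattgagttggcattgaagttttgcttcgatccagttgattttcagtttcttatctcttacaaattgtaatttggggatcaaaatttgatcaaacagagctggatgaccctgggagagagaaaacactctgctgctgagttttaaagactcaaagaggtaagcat
Sult1e1: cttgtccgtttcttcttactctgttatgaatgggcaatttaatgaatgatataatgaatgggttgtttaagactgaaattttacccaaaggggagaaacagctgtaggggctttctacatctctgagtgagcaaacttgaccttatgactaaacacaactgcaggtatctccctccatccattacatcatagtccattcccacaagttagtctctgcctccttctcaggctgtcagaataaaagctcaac

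A RefSeq window was found for 35 of the 41 members, in 38 windows since some genes have several starts. TTGCNNAA was in 6 of the 38 windows, against 9.56% of 32851 promoters of the genome. These were windows of Ugt2b5, Ugt2b36 and Sult2a8, and of Sult2a3, with 1 read in all mice together, and Sult2a4 and Ugt2a2, with no read. Another window of Sult2a8, at chr7:14438552-14438801 and not shown, held no match. GCGTG, the core of the site of the aryl hydrocarbon receptor, was in 4 windows against 28.2%, and TGACNNNGC, the core of an antioxidant response element, was in none against 10.2%. The windows of paralogs share ancestry and are not independent, and a match in letters is a description and not a measured site.

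Levels can be set against each other only per exon length, and among members that share no exon with another member the highest sham level was that of Ugt2b5, at 374 ± 18.1 CPM per kb (SD, n = 4 mice). It was followed by Ugt2b36 at 244 ± 11.1, Sult2a8 at 190.2 ± 61.2, Sult1a1 at 139.7 ± 49.3, Ugt2b34 at 125 ± 8.40, Ugt2b1 at 124 ± 21.5, Ugt3a2 at 106 ± 7.45 and Ugt2a3 at 103 ± 12.4 CPM per kb. From Sult2a8 down to Ugt2a3, neighbours in this order differed by less than the SD of at least the higher of them. In CLP the order opened with Ugt2b5 at 202 ± 72.7, Ugt2b36 at 104 ± 55.5 and Ugt3a2 at 88.9 ± 16.0 CPM per kb, and Sult2a8 stood at 36.3 ± 36.1. Of the 100-base stretches of Ugt2b5 and Ugt2b38, 24.7% and 24.2% occur in another gene's exons, mainly in each other's, so that reads of this length may be uncertain between them, and for Sult2a2 this share was 34.6%.

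In CLP livers 3 transferase transcripts fell, for bilirubin and phenol conjugation, and most of the others were lower than in sham livers by point estimate without passing the test. The transcript of the estrogen sulfotransferase, Sult1e1, was higher in every CLP mouse than in any sham mouse, also without passing. Of the 24 members past the filter, 3 passed an FDR of 0.05 in edgeR, all lower in CLP: Ugt1a1, Ugt1a9 and Sult1c2. Over all 13190 genes tested, 1.14% were called lower and 1.64% higher, so that the share of members called lower was above the background and none was called higher. By point estimate 21 members were lower and 3 higher, with a median log2 fold change of -1.03 against 0.018 over all genes, and 13 had an unadjusted p under 0.05, of which 12 were lower, where 28.6% of all genes had such a p and 13.1% had it and were lower. The 4 CLP mice lay below the 4 sham mice without overlap for 12 members (14.2% of all genes did so) and above them for 1, Sult1e1 (12.2% of all genes). Scaling by library size alone shifted the median of all genes to -0.15 and left 0 members called, and of the 21 members described in full and run under it, it changed the direction of Ugt3a1 in this comparison.

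The number of calls depended on single mice. Without CLP+DCA replicate 3, which enters the comparison through the shared estimate of spread, 12 members were called lower in CLP and 1 higher, against 11.5% and 12.2% of the 13288 genes then tested. The 10 calls so added were Ugt1a5, Ugt1a6a, Ugt2a3, Ugt2b1, Ugt2b34, Ugt2b35, Ugt2b36, Ugt2b5 and Sult1a1, all lower, and Sult1e1, higher, a direction that the filter favoured because this gene passed it only through mice in which it was high. There were 7 calls without CLP replicate 3 (7.46% of genes), and without CLP+DCA replicate 4 the count stayed at 3, all lower (3.92%). There was 1 call without CLP+DCA replicate 2 (1.06%), and 0 without any of sham replicates 1 to 4, CLP replicates 1, 2 and 4, or CLP+DCA replicate 1 (0.0749% to 0.967%). DESeq2 on the 8 mice compared, the tool named in the study's methods, called 14 members lower and 2 higher, where 9.18% and 9.53% of 18281 genes were so called. Ugt1a1, Ugt1a9 and Sult1c2 were lower in CLP under every alternative run, with log2 fold changes of -2.05 to -1.55, -2.26 to -1.78 and -2.79 to -1.93, the value farthest from 0 for Sult1c2 being that without CLP replicate 3.

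**Figure D1:**
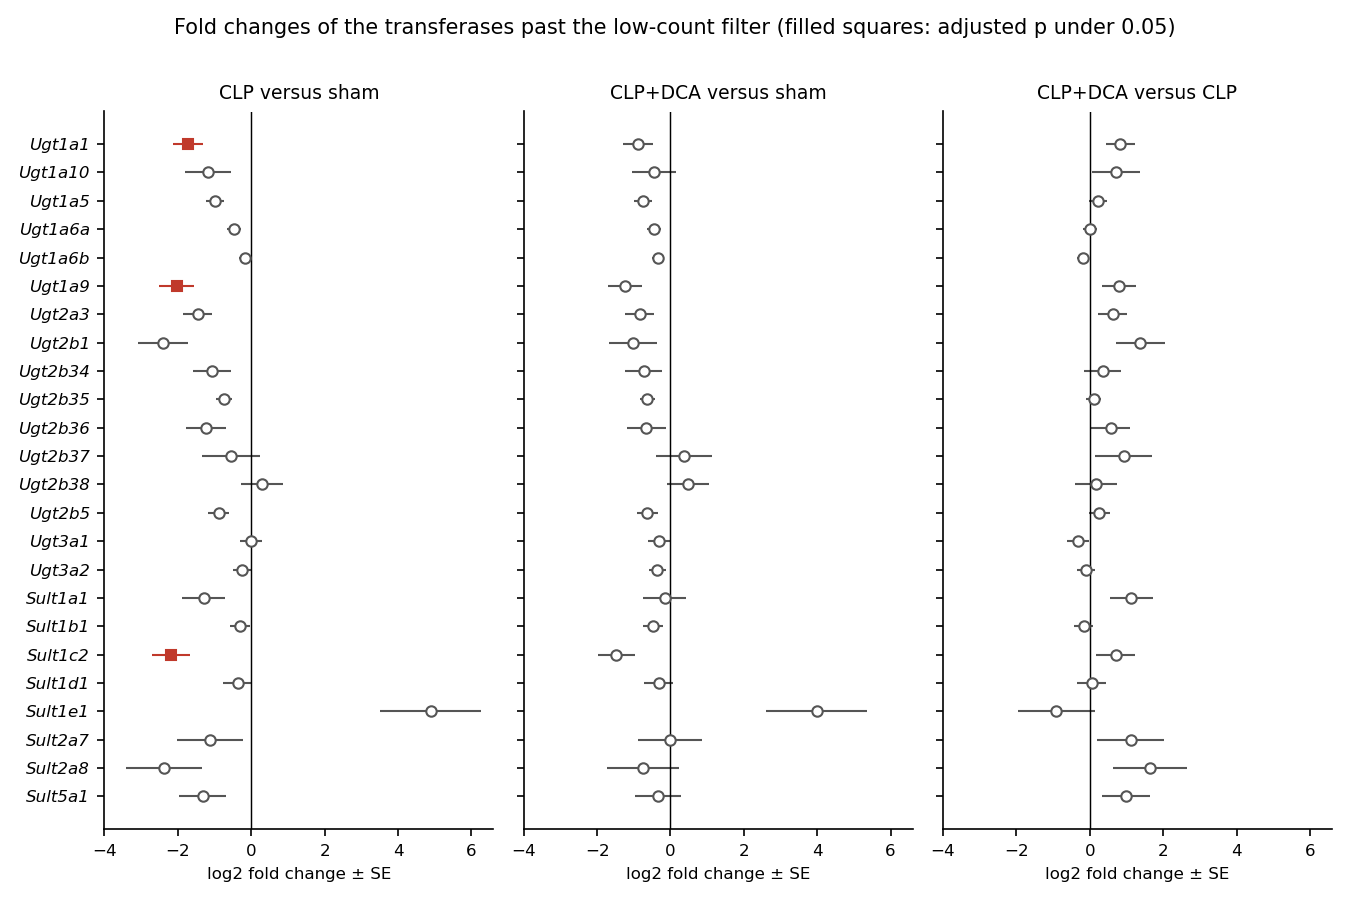
Log2 fold changes (x axis) with standard errors of the 24 transferases past the low-count filter, in 3 comparisons of 4 mice each, from edgeR fitted to all 12 mice. Filled squares mark the 3 genes with an adjusted p under 0.05, Ugt1a1, Ugt1a9 and Sult1c2, all in CLP versus sham. Of the points in that panel, 21 lie left of 0, and Sult1e1 lies farthest right at 4.89.

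At the Ugt1a locus 2 of the 6 genes past the filter fell, and the log2 fold changes of the 6 in CLP ranged from -2.03 for Ugt1a9 to -0.16 for Ugt1a6b. Ugt1a1 (chr1:88211959-88220002, plus strand), which encodes the enzyme that conjugates bilirubin, had 142, 173, 147 and 124 CPM in sham replicates 1 to 4 and 47.0, 30.6, 71.8 and 28.0 CPM in CLP replicates 1 to 4. The groups did not overlap, and the lowest sham mouse was above the highest CLP mouse. Ugt1a1 fell by 1.72 ± 0.41 (SE) on the log2 scale, with an adjusted p of 0.0495 in edgeR's quasi-likelihood test and of 6.09e-08 to 0.139 over 21 alternatives. In the CLP+DCA mice it was at 90.1, 71.3, 27.7 and 128 CPM. Ugt1a9 (chr1:88070779-88220002), whose product takes bulky phenols, had 23.2, 14.1, 19.6 and 26.0 CPM in sham and 6.75, 1.96, 7.23 and 4.00 CPM in CLP, again without overlap. It fell by 2.03 ± 0.47 (SE, adjusted p = 0.0476, 6.45e-07 to 0.125 over 21 alternatives). The CLP+DCA mice had 9.10, 8.40, 2.79 and 14.8 CPM, so that replicates 1 and 2 lay between the other groups, replicate 4 reached the lowest sham mouse and replicate 3 lay among the CLP mice.

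Ugt1a5 had 12.2, 15.9, 12.9 and 12.8 CPM in sham, 4.84, 6.37, 9.36 and 6.74 in CLP and 8.62, 4.40, 9.64 and 9.26 in CLP+DCA, with a log2 fold change of -0.98 ± 0.25 (SE, adjusted p = 0.0541) in CLP. All 8 mice with CLP were below all sham mice for this gene, and CLP+DCA replicate 3 was here the highest of its group. Ugt1a6a, a transferase of small planar phenols, had 32.1, 30.7, 29.4 and 32.9 CPM in sham and 24.8, 18.5, 21.4 and 26.0 CPM in CLP, also without overlap, but its log2 fold change was only -0.46 ± 0.20 (adjusted p = 0.148). Its close copy Ugt1a6b had 32.6, 35.1, 30.2 and 39.3 CPM in sham and 33.6, 26.0, 30.6 and 32.2 CPM in CLP, where the groups overlapped, with a log2 fold change of -0.16 ± 0.17 (adjusted p = 0.52). The differences in fold change between these genes were not tested. Ugt1a10 was scarce, at 0.198 to 0.696 CPM in sham and 0.135 to 0.277 in CLP, and had a log2 fold change of -1.17 ± 0.63 (adjusted p = 0.235). Ugt1a10 passed the low-count filter only through sham and CLP+DCA mice in which it was high, and no CLP mouse reached the level asked for. The filter thus favoured a lower value in CLP for this gene, which is among the 21 members lower by point estimate.

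For Ugt1a7c all 4 CLP mice were above all other mice in CPM, on few reads. It had 3, 7, 2 and 4 reads in sham, 17, 5, 26 and 6 in CLP and 0, 4, 7 and 3 in CLP+DCA, or 0.0633 to 0.173, 0.239 to 0.629 and 0 to 0.19 CPM, so that it failed the filter. By an exact permutation test over mice, the mean log2 CPM in CLP was higher by 1.29 than in sham (two-sided p = 0.0286), and CLP+DCA differed from CLP by -1.51 (p = 0.0286), where 0.0286 is the smallest p that 4 against 4 mice allow, and 12 such tests were made on 4 members. DESeq2 on 8 mice, which applies its own filter, gave 1.75 ± 0.64 (SE, adjusted p = 0.0314), and edgeR with no filter gave 1.71 ± 0.62 (adjusted p = 0.134). Ugt1a2 had 34 reads in all, and its exact permutation p was 0.971 for CLP against sham.

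Reads of this locus are hard to assign, since the GENCODE M21 exons of the Ugt1a genes overlap over 50.3% to 82.7% of their length and a predicted gene, Gm20528, lies on the other strand of the common exons. Ugt1a2 had 1 to 7 reads per mouse where Ugt1a1, with which it shares all its common exons, had 624 to 6985, so reads in the common exons cannot have been counted for every gene. Whether they were counted for any is not given in the sources used here, and for that reason levels of Ugt1a genes are not compared with each other. Summed over the locus, 243, 269, 239.7 and 236 CPM in sham stood against 118, 84.3, 141 and 97.5 CPM in CLP, without overlap, and the sum fell by 1.16 ± 0.27 (SE) on the log2 scale (edgeR adjusted p = 0.0475).

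**Figure D2:**
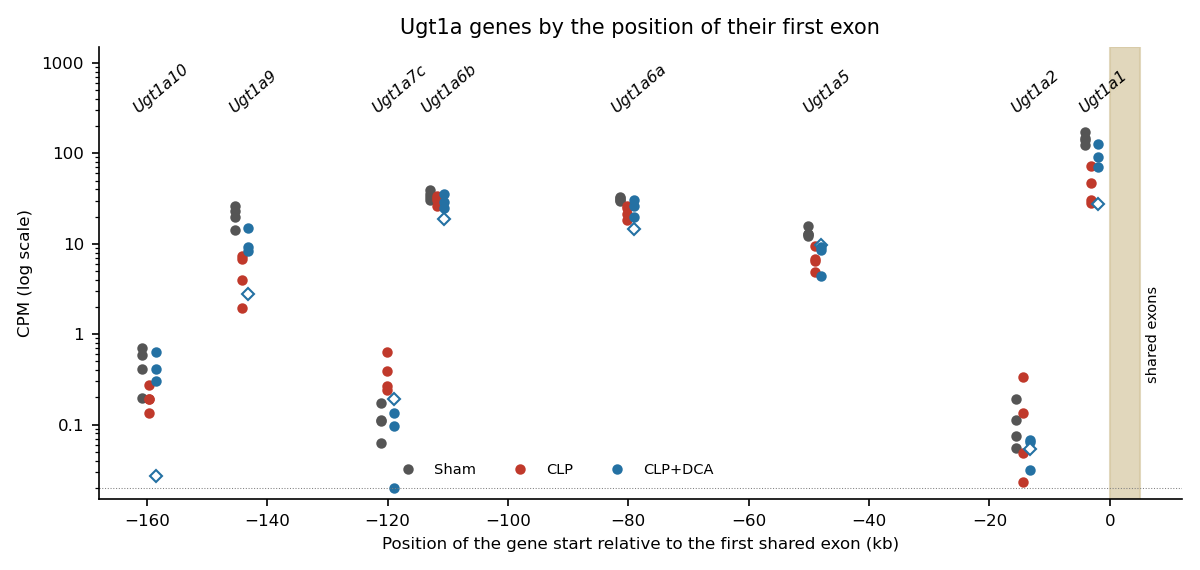
Level of each Ugt1a gene in each mouse (y axis, CPM on a log scale) against the position of its gene start relative to the common exons (x axis, kb, groups drawn slightly side by side). The open diamond is CLP+DCA replicate 3, and the dotted line holds a value of 0, for Ugt1a7c in CLP+DCA replicate 1. CLP mice lie below sham mice at Ugt1a9, Ugt1a6a, Ugt1a5 and Ugt1a1, overlap with them at Ugt1a6b, Ugt1a10 and Ugt1a2, and lie above them at Ugt1a7c.

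The Ugt2 genes, whose products conjugate steroids, bile acids and drugs, were lower in CLP for the abundant members, although none passed the FDR over all 12 mice. For 6 of the 8 past the filter (Ugt2a3, Ugt2b1, Ugt2b34, Ugt2b35, Ugt2b36 and Ugt2b5) the 4 CLP mice lay below the 4 sham mice (14.2% of all genes did so). In edgeR 5 had an unadjusted p under 0.05, all lower, where 13.1% of all genes had such a p and were lower. Ugt2b1 (chr5:86916639-86926503, minus strand) had 396, 271, 289 and 316 CPM in sham and 76.5, 18.4, 109.6 and 35.4 CPM in CLP, and its log2 fold change of -2.40 ± 0.69 (SE, adjusted p = 0.07) was the most negative of the family. CLP replicates 2 and 4 had the lowest of these values. Ugt2b5 had 707, 733, 685 and 654 CPM in sham, a range of little spread, and 453, 233, 521 and 291 CPM in CLP, for a log2 fold change of -0.89 ± 0.29 (adjusted p = 0.086). Ugt2b36 had 534, 498, 493 and 482 CPM in sham and 271, 81.3, 339 and 163 CPM in CLP, for a log2 fold change of -1.23 ± 0.54 (adjusted p = 0.16). For both genes the sham mice lay close together and the CLP mice were spread over a range several times as wide. Ugt2b34 showed the same spread, with 578, 546, 544 and 490.5 CPM in sham and 356, 101, 385 and 178 CPM in CLP, and a log2 fold change of -1.08 ± 0.52 (adjusted p = 0.19). Ugt2b35 had 249, 200.2, 209.6 and 188 CPM in sham and 156, 100.4, 147 and 104 CPM in CLP, and the log2 fold change nearest 0 of the 6, -0.74 ± 0.21 (adjusted p = 0.0685). Ugt2a3, which encodes a bile acid transferase, had 229, 193, 198 and 249 CPM in sham and 85.5, 48.9, 112 and 68.7 CPM in CLP, with a log2 fold change of -1.46 ± 0.40 (adjusted p = 0.0651).

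In CLP+DCA, replicate 3 lay apart from the other mice of its group for these 6 genes. Replicate 3 was the lowest of its group for each of them, and for all but Ugt2b1 it was the lowest of the 12 mice. Its Ugt2b36 level was 56.7 CPM against 387, 387 and 437 CPM in replicates 1, 2 and 4, which all lay between the CLP and the sham mice. Ugt2b1 stood at 198, 137, 19.5 and 270.1 CPM and Ugt2a3 at 151, 114, 36.9 and 185 CPM in CLP+DCA replicates 1 to 4, so that replicates 1, 2 and 4 were above every CLP mouse in both genes. The members Ugt2b37 and Ugt2b38 were scarcer and more variable, at 0.547 to 2.23 and 4.92 to 18.4 CPM in sham and 0.539 to 1.36 and 7.64 to 17.2 CPM in CLP, with adjusted p of 0.648 and 0.741. Ugt2a1 and Ugt2a2, known from the olfactory epithelium, had no read in any mouse, but their exons overlap over 98.8% and 94.5% of their length, so that reads from them are uncertain.

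**Figure D3:**
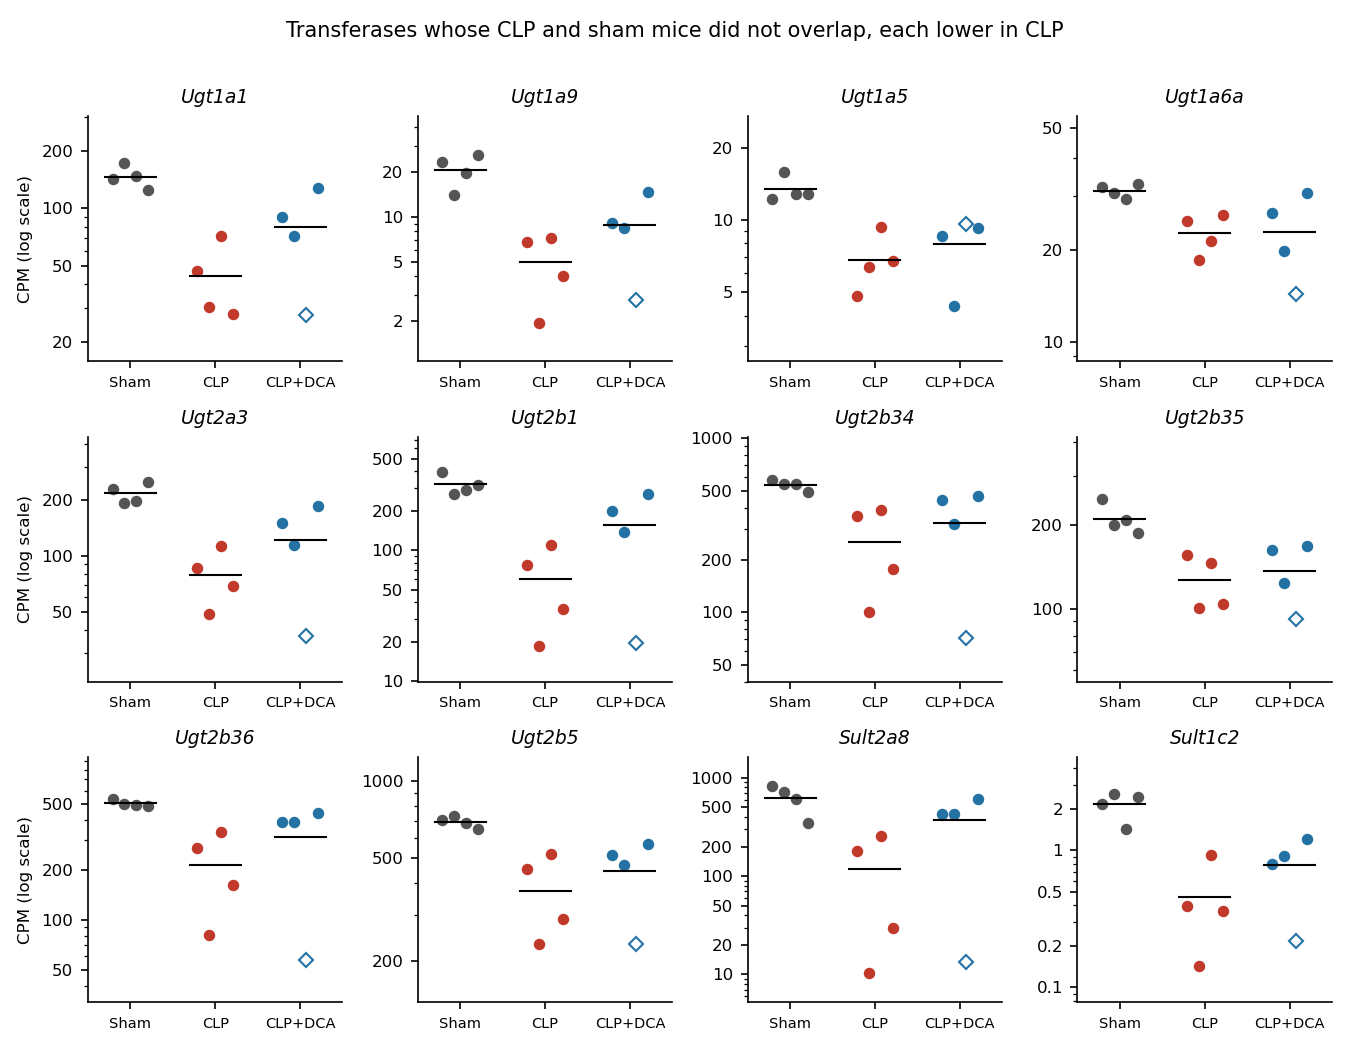
CPM of each mouse (y axes, log scale) for the 12 transferases whose 4 CLP mice all lay below the 4 sham mice, with the group mean as a line and CLP+DCA replicate 3 as an open diamond. CLP replicates 2 and 4 are the 2 lowest CLP mice in 10 of the 12 panels, and CLP+DCA replicate 3 is the lowest mouse of its group in 11 of 12, the exception being Ugt1a5.

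The Ugt3a genes, whose human counterparts use sugars other than glucuronate, were near their sham levels in CLP by point estimate, and neither passed the test. Ugt3a2 had 344, 349, 325 and 298 CPM in sham, 259, 227, 272 and 345 in CLP and 282, 262, 134 and 350.1 in CLP+DCA. The groups overlapped, and its log2 fold change in CLP was -0.26 ± 0.24 (SE, adjusted p = 0.483). Ugt3a1 had 42.5, 64.9, 43.1 and 36.9 CPM in sham and 22.8, 69.8, 39.0 and 56.4 in CLP, with a log2 fold change of 0.0012 ± 0.31 (adjusted p = 0.998), and the highest and the lowest CLP mouse lay on either side of the sham range. CLP replicates 2 and 4, low for most members, were the 2 highest CLP mice for Ugt3a1.

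Among the sulfotransferases, Sult1c2 fell in CLP, while Sult2a8 was lower and Sult1e1 higher in every CLP mouse than in any sham mouse without passing the test. Sult2a8 (chr7:14410686-14446587, minus strand), a bile acid sulfotransferase of mouse liver, had 819, 717, 611 and 351 CPM in sham, 181, 10.3, 255 and 29.6 in CLP and 431, 432, 13.4 and 611 in CLP+DCA. The groups did not overlap between CLP and sham, yet the CLP mice differed among themselves widely. With this spread the log2 fold change of -2.39 ± 1.04 (SE) had an adjusted p of 0.157 in edgeR and of 0.011 to 0.292 over 21 alternatives, 2 of which passed, DESeq2 on 8 mice and voom with quality weights. In CLP+DCA, replicates 1, 2 and 4 were all above the highest CLP mouse and replicate 3 was near the lowest. Its neighbour Sult2a7 had the same pattern at a lower level, with 3.12, 4.18, 4.62 and 2.27 CPM in sham, 2.05, 0.144, 3.68 and 0.314 in CLP and 4.47, 5.04, 0.108 and 4.49 in CLP+DCA, but its groups overlapped (log2 fold change -1.13 ± 0.90, adjusted p = 0.407). Sult2a4, Sult2a5 and Sult2a6 had no read in any mouse, and Sult2a1, Sult2a2 and Sult2a3 had at most 0.0821 CPM. Of the 100-base stretches of Sult2a1, Sult2a2, Sult2a4 and Sult2a5, 5.76% to 34.6% occur in another gene's exons, so that reads of these genes may have been lost or counted elsewhere.

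Sult1c2 (chr17:53829637-53845958), a transferase of phenols, was called lower although it was scarce. It had 2.19, 2.60, 1.42 and 2.46 CPM in sham and 0.392, 0.144, 0.919 and 0.359 CPM in CLP, on 3 to 105 reads per mouse, and its groups did not overlap. Sult1c2 fell by 2.18 ± 0.52 (SE) on the log2 scale, with an adjusted p of 0.0489 in edgeR and of 4.85e-05 to 0.128 over 22 alternatives. In CLP+DCA it was at 0.798, 0.907, 0.217 and 1.21 CPM, below every sham mouse, with a log2 fold change of -1.48 ± 0.50 against sham (adjusted p = 0.296).

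Sult1e1 (chr5:87575968-87591611, minus strand), the estrogen sulfotransferase, was close to absent from sham livers. It had 1, 4, 5 and 4 reads in sham, 35, 149, 39 and 89 in CLP and 9, 6, 219 and 6 in CLP+DCA. In CPM these were 0.0372, 0.099, 0.158 and 0.109, then 0.806, 7.13, 0.943 and 4.00, then 0.287, 0.202, 5.93 and 0.191. CLP replicates 2 and 4 and CLP+DCA replicate 3, the mice with the lowest Sult2a8, had the highest Sult1e1, and CLP+DCA replicates 1, 2 and 4 lay between the sham and the CLP mice. The gene passed the low-count filter only through the 4 CLP mice and CLP+DCA replicate 3, in which it was high. The log2 fold change in CLP was 4.89 ± 1.37 (SE, adjusted p = 0.0685, 1.63e-08 to 0.167 over 21 alternatives), and without CLP+DCA replicate 3 it was 4.88 ± 0.80 (adjusted p = 0.00399). The neutrophil sum was also highest in CLP+DCA replicate 3, at 51.5 CPM, and was 38.2 CPM in CLP replicate 2, but in CLP replicate 4, with high Sult1e1, it was 27.6 CPM, below the 29.8 CPM of CLP replicate 3, with low Sult1e1, and its part in the Sult1e1 result was not tested.

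The other Sult1 genes past the filter overlapped between CLP and sham. Sult1a1, the main phenol sulfotransferase, had 168, 132, 212 and 297 CPM in sham, 109.8, 39.0, 132 and 48.7 in CLP and 266, 212, 27.8 and 217 in CLP+DCA, and its log2 fold change in CLP was -1.29 ± 0.59 (SE, adjusted p = 0.174). Its highest CLP mouse and lowest sham mouse were nearly equal, and it overlaps the exons of Sgf29 on the other strand over 61 bases, so that without a stated strand setting a few of its reads are uncertain. Sult1d1, a catecholamine sulfotransferase, averaged 80.5 ± 18.8 CPM (SD, n = 4) in sham and 62.4 ± 16.2 CPM in CLP, with a log2 fold change of -0.37 ± 0.40 (adjusted p = 0.545). Sult1b1, which acts on thyroid hormones, was at 15.8 ± 2.38 and 12.8 ± 2.02 CPM, with a log2 fold change of -0.31 ± 0.27 (adjusted p = 0.438). In both genes CLP+DCA replicate 3 was the lowest of the 12 mice, at 17.9 and 5.28 CPM. Sult5a1 had 10.4, 7.38, 11.5 and 3.75 CPM in sham, 4.89, 1.68, 3.55 and 2.87 in CLP and 6.00, 3.86, 1.002 and 15.4 in CLP+DCA, the widest range within a group being that of CLP+DCA (CLP versus sham -1.32 ± 0.65, adjusted p = 0.199). Of the remaining genes, Sult1c1 had no read, Sult2b1, a cholesterol sulfotransferase of skin, had 12 reads in all mice together, Sult6b1 had 26, and Sult3a1, Sult3a2, Sult4a1, a gene of neurons, and Sult6b2 reached at most 0.0744 CPM. The exact permutation p of Sult2b1 was 0.743 and that of Sult6b1 was also 0.743 for CLP against sham, and no difference was detectable at this depth.

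**Figure D4:**
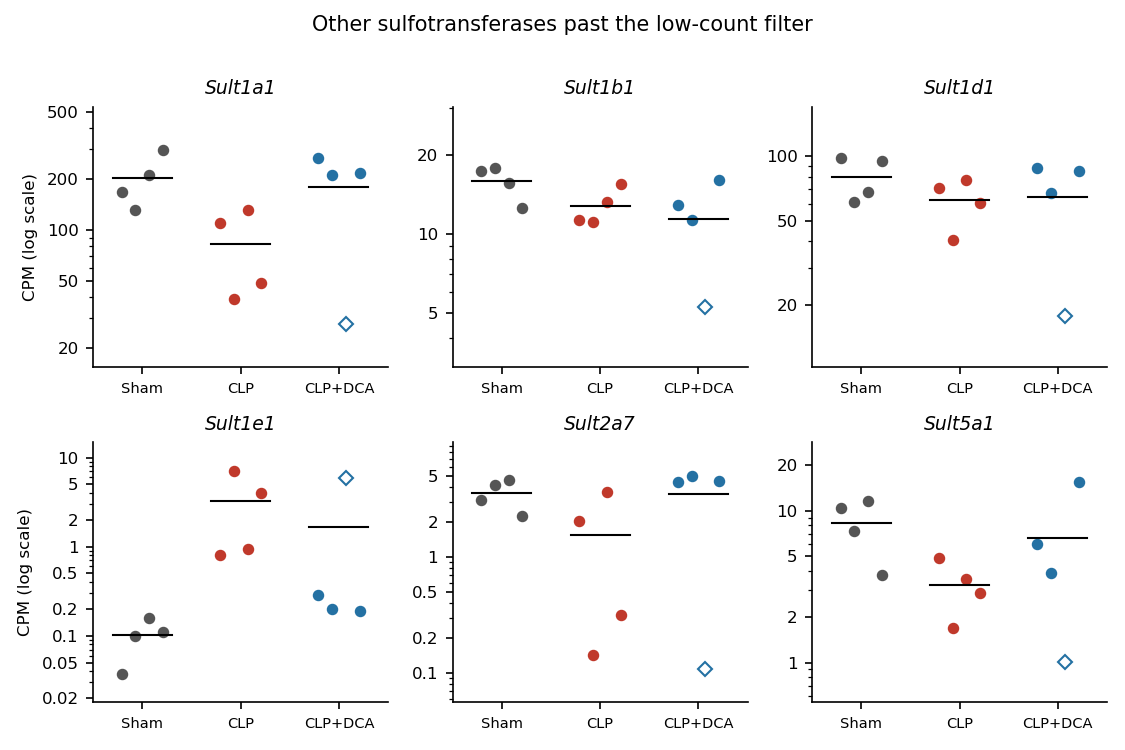
CPM of each mouse (y axes, log scale) for 6 sulfotransferases past the low-count filter, with the group mean as a line and CLP+DCA replicate 3 as an open diamond. For Sult1e1 all CLP mice lie above all sham mice and the diamond lies at 5.93 CPM, and in the other 5 panels CLP and sham overlap and the diamond is the lowest point.

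With CLP+DCA against sham, 0 members passed the FDR in edgeR, where 0.0379% of the genes tested did. In the same test 8 members had an unadjusted p under 0.05, 7 of them lower, while 13.0% of all genes had such a p. DESeq2 called 1 member with 12 mice (1.31% of genes) and 0 with 8 (0.94%), and voom with quality weights called 3 (3.76%). By point estimate 21 of 24 were lower, with a median log2 fold change of -0.47. The CLP+DCA mice lay below the sham mice without overlap for 8 members, Sult1c2, Ugt1a5, Ugt2a3, Ugt2b1, Ugt2b34, Ugt2b35, Ugt2b36 and Ugt2b5 (4.97% of all genes did so), and above them for Sult1e1 (4.78% of all genes). Both this comparison and CLP versus sham use the same sham mice, so their likeness is not independent. Ugt1a1 was lower by point estimate, at -0.88 ± 0.40 (SE, adjusted p = 0.382), as was Ugt1a9 at -1.24 ± 0.46 (adjusted p = 0.319), while Sult2a8 was at -0.75 ± 0.99 (adjusted p = 0.738). Without CLP+DCA replicate 3 the count stayed at 0 (0.0828% of genes), and Ugt1a1 was then at -0.60 ± 0.31, Ugt1a9 at -0.94 ± 0.38 and Sult2a8 at -0.35 ± 0.85 on the log2 scale.

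With CLP+DCA against CLP, groups that share the operation and differ in the drug, 0 members passed the FDR in edgeR (0.00758% of the genes tested did) and 0 had an unadjusted p under 0.05 (10% of genes had). DESeq2 called 0 on 12 mice (0.74% of genes) and on 8 mice (0.439%), and voom with quality weights called 5 (10.2%). The point estimates were higher with the drug for 19 members and lower for 5, with a median of 0.46 against 0.0082 over all genes. Among the largest were Sult2a8 at 1.64 ± 1.01 (SE, adjusted p = 0.62), Ugt2b1 at 1.38 ± 0.66 (adjusted p = 0.511) and Sult1a1 at 1.13 ± 0.59 (adjusted p = 0.546). Sult1e1 was at -0.91 ± 1.04 (adjusted p = 0.804) on all 12 mice and at -3.77 ± 0.82 (adjusted p = 0.0329) without CLP+DCA replicate 3, and over 21 alternatives it ranged from -3.77 to -0.15. In the fit without that mouse it was the single member called, where 4.64% of genes were, and since it passed the filter only through mice in which it was high, its call is given as a description. In that fit Ugt2a3 stood at 0.93 ± 0.24 (adjusted p = 0.0526), Ugt1a1 at 1.12 ± 0.31 (adjusted p = 0.0582) and Sult1a1 at 1.49 ± 0.41 (adjusted p = 0.0598). No label marks CLP+DCA replicate 3 as different from its group.

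Other genes of glucuronidation and sulfation had a median log2 fold change of -0.23 in CLP versus sham, where the transferases had -1.03, a difference that was not tested. Of 52 genes of cosubstrate supply, deconjugation, export and regulation, all past the filter, 1 was called in CLP versus sham, and it was lower. Of all genes, 2.78% were called, and 1.14% were called lower. In edgeR 22 of the 52 had an unadjusted p under 0.05, 18 of them lower, against 28.6% and 13.1% of all genes. The called gene was Papss2, which encodes the liver's main PAPS synthase, with 172, 128, 157 and 136 CPM in sham, 59.7, 37.3, 65.2 and 35.1 in CLP and 74.2, 66.4, 24.2 and 104 in CLP+DCA. It fell by 1.58 ± 0.36 (SE) on the log2 scale (edgeR adjusted p = 0.0463, 1.20e-10 to 0.133 over 22 alternatives), and every mouse with CLP was below every sham mouse. The other synthase gene, Papss1, averaged 15.4 ± 1.80 CPM (SD, n = 4) in sham and 21.5 ± 9.70 CPM in CLP, with a log2 fold change of 0.47 ± 0.32 (adjusted p = 0.336). Of the 10 genes of PAPS supply 5 were lower and 5 higher by point estimate, with a median of 0.074.

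On the side of UDP-glucuronate, 8 genes were listed: Pgm1, Pgm2, Ugp2, Ugdh, Slc35d1, Slc35d2, Slc35b1 and Gys2. Of these, 6 were lower by point estimate and 0 were called. In edgeR 6 had an unadjusted p under 0.05, 5 of them lower, against 28.6% and 13.1% of all genes. Slc35b1 was the higher gene and Gys2 was among the lower ones, and a direct part of either in this supply was not established here. Ugp2, which makes UDP-glucose, had 230.0, 201, 198 and 219 CPM in sham and 121, 96.5, 165 and 125 CPM in CLP, without overlap, and a log2 fold change of -0.74 ± 0.20 (SE, adjusted p = 0.0604). Ugdh, which oxidizes it to UDP-glucuronate, had 192, 169, 156 and 210.4 CPM in sham and 132, 35.8, 117 and 45.8 CPM in CLP, with a log2 fold change of -1.14 ± 0.43 (adjusted p = 0.119), and its lowest CLP mice were again replicates 2 and 4. The 3 genes that lead from glucuronate to ascorbate were all lower by point estimate, with Akr1a1 at -0.33 ± 0.12 (adjusted p = 0.107). None of the 4 export genes was called, and Abcc3, which had the smallest p, a pump for glucuronides at the blood side, was at 219 ± 34.4 CPM in sham and 122 ± 49.2 CPM in CLP (log2 fold change -0.85 ± 0.34, adjusted p = 0.135). Among 3 genes of deconjugation Arsa, a lysosomal sulfatase, was at -0.40 ± 0.19 (adjusted p = 0.18).

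Of 24 regulators of these genes 19 were lower by point estimate and 0 were called in CLP versus sham, while 8 had an unadjusted p under 0.05 in edgeR, 7 of them lower, where 28.6% of all genes had such a p. Nfe2l2, which encodes the oxidative stress factor NRF2, had 53.6, 56.8, 48.5 and 44.8 CPM in sham and 37.2, 33.5, 41.2 and 36.9 CPM in CLP, without overlap, at -0.45 ± 0.14 (SE, adjusted p = 0.0756). For the C/EBP factors, whose letters were searched in the promoters and which were named for that role after their values were seen, Cebpa was at 428 ± 11.7 CPM in sham and 300.1 ± 76.6 in CLP (SD, n = 4, log2 fold change -0.51 ± 0.17, adjusted p = 0.0938). Cebpb was at 90.7 ± 17.9, 101 ± 44.9 and 175 ± 35.1 CPM in sham, CLP and CLP+DCA, or 0.15 ± 0.28 (adjusted p = 0.73) in CLP and 0.95 ± 0.28 (adjusted p = 0.273) in CLP+DCA against sham, where the CLP+DCA mice lay above all sham mice. The xenobiotic receptor genes Nr1i2, which encodes PXR, and Nr1i3, which encodes CAR, were at -0.20 ± 0.16 (adjusted p = 0.411) and -0.14 ± 0.41 (adjusted p = 0.831). With CLP+DCA, 0 of the 52 genes were called against sham and 0 against CLP, while 6 and 4 had an unadjusted p under 0.05 in edgeR, against 13.0% and 10% of all genes. DESeq2 called 1 on 12 mice (1.31% of genes) and 3 on 8 (0.94%) against sham, and 1 on 12 (0.74%) and 1 on 8 (0.439%) against CLP. Without CLP+DCA replicate 3, 20 of the 52 were called in CLP versus sham, where 23.8% of genes were, and 2 in CLP+DCA versus CLP, where 4.64% were.

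**Figure D5:**
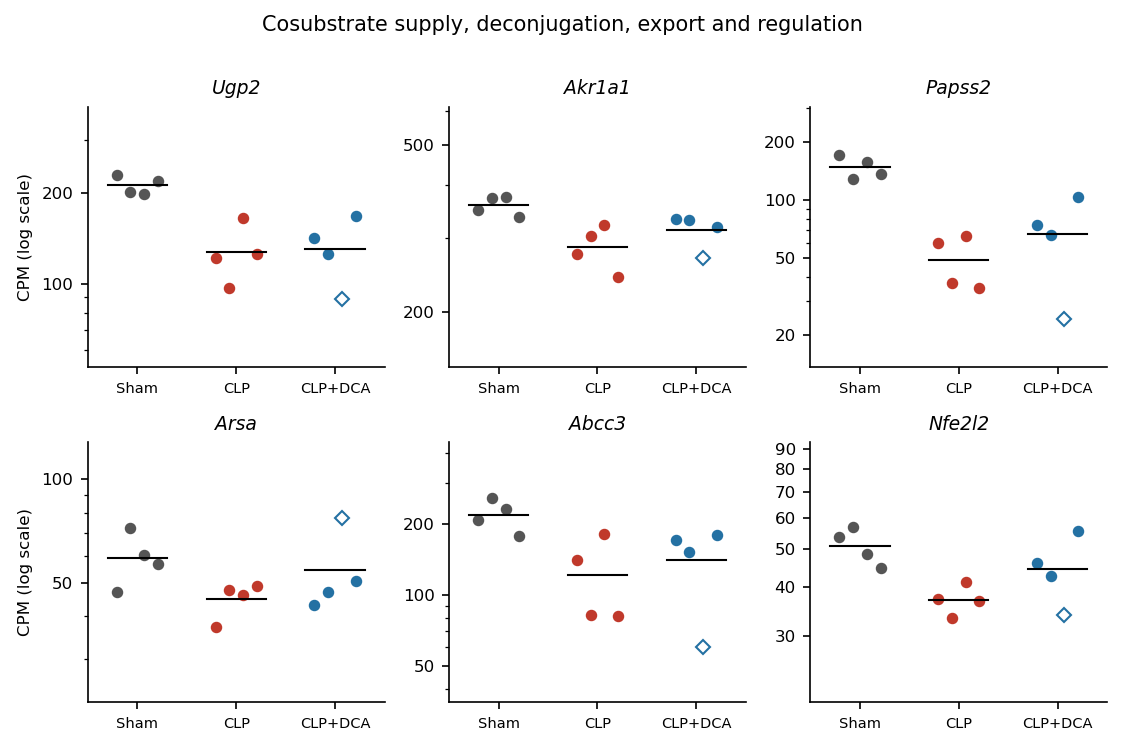
CPM of each mouse (y axes, log scale) for the gene of each cosubstrate, deconjugation, export and regulator list with the smallest p in CLP versus sham, with the group mean as a line and CLP+DCA replicate 3 as an open diamond. Papss2, the called gene, and Ugp2 lie below sham in all mice with CLP, whereas in the panel of Arsa the groups overlap.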

How the data were processed

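Whole-liver mRNA of 12 mice was sequenced, with 4 mice per group, each label giving the group and a replicate number. The authors made poly(A)-enriched TruSeq libraries, sequenced them as paired 100-base reads, aligned to mm10 with STAR 2.5 and counted reads per gene with featureCounts (Subread 1.5.0-p1), per the labels and the study's methods. The deposited file holds unnormalized counts for 25611 genes with coordinates. The annotation, the strand setting and the treatment of reads shared between genes are not given in the sources used here. Nothing beyond the labels says that mice of a group were kept apart, so p-values measure the spread between these mice.

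Counts were normalized by TMM and filtered with filterByExpr (minimum count 10), leaving 13190 genes, and tested in edgeR 4.0.16 (R 4.3.3, robust quasi-likelihood, all 12 mice in a single fit, Benjamini-Hochberg FDR 0.05 over all genes tested). The SE is the log2 fold change divided by the square root of F. CPM use TMM library sizes. Members under the filter with at least 10 reads were tested by a two-sided exact permutation test of log2 CPM (prior count 2). Reads without molecular identifiers make counting error a lower limit. Exon overlap came from GENCODE M21, promoters from RefSeq on GRCm38.p6, and no protein sequence was used. Alternatives were DESeq2 1.42.0, voom with quality weights (limma 3.58.1), other filters, scalings and FDRs (0.01 and 0.1), 8 mice only, a replicate block, summed loci and each mouse left out. The edgeR step was tested on simulated data.

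Members and gene lists were chosen with earlier results of these data known. Described in full are members called in any comparison, the 10 with the smallest p among those whose CLP and sham mice do not overlap, and the 3 most abundant of each family. Of each pathway list the called genes, or else the gene with the smallest p, are named, and Ugdh, Papss1, Cebpa, Cebpb, Nr1i2 and Nr1i3 were added for their roles after their values were seen. Of the listed genes, Bpnt2 stands in the table as Impad1, Sts was not analysed here, and the values of a regulator counted in its list are not reported here.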

Additional observations from a re-analysis of the deposited data

Results flagged for a closer look

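Of 81 groups of 4 mice, each holding the values of a named transferase or pathway gene, 4 had a mouse far from the other 3 by Dixon's criterion at the 95% level, a test on the gap to the nearest other mouse over the group's range, and chance flags about 1 group in 20. In 3 of them the mouse was CLP+DCA replicate 3. Sult1e1 was at 5.93 CPM in it, against 0.191 to 0.287 CPM in the other CLP+DCA mice. Ugt2b36 was at 56.7 CPM, against 387 to 437 CPM, and Sult2a7 was at 0.108 CPM, against 4.47 to 5.04 CPM. The remaining group was that of Ugt1a5 in sham replicate 2, at 15.9 CPM against 12.2 to 12.9 CPM in the other sham mice.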

How the results depend on the processing

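The count of members called in CLP versus sham, 3 in edgeR on 12 mice, depended on the processing, and the cause was not tested. It was 0 at an FDR of 0.01 and 9 at 0.1, where the share of all genes called was not computed. With DESeq2 on 12 mice it was 9 (10.3% of all genes were then called). On the 8 mice compared it was 16 with DESeq2 (18.7%) and 10 with edgeR (18.3%). It was 14 with voom and quality weights (26.2%), and 0 with library size alone (1.58%) or with no low-count filter (0.647%). With RLE scaling it was 2 (2.7%), with a filter of 1 CPM 3 (3.52%) and with the Ugt1a and Sult2a loci summed 2 (2.77%). It ranged from 0 to 13 with a mouse left out, the 13 being without CLP+DCA replicate 3 (23.8%). In CLP+DCA versus sham the count was 0, but 1 with DESeq2 on 12 mice (1.31%) and 3 with voom (3.76%). In CLP+DCA versus CLP it was 0, but 5 with voom (10.2%) and 0 to 1 with a mouse left out (0% to 4.64%). Without a low-count filter more genes enter the adjustment, and with 8 mice the spread of CLP+DCA replicate 3 does not enter CLP versus sham. The count of the 52 pathway genes called in CLP versus sham, 1 in edgeR, was 9 with DESeq2 on 12 mice (10.3% of all genes). It was 25 with DESeq2 (18.7%) and 10 with edgeR (18.3%) on 8 mice, and 18 with voom (26.2%). It was 0 with library size alone (1.58%) or no filter (0.647%), and 0 to 20 with a mouse left out (0.0749% to 23.8%). In CLP+DCA versus sham it was 0, but 1 and 3 with DESeq2 on 12 and 8 mice (1.31% and 0.94%) and 3 with voom (3.76%). In CLP+DCA versus CLP it was 0, but 1 and 1 with DESeq2 (0.74% and 0.439%) and 8 with voom (10.2%). With a mouse left out it was there 0 to 2 (0% to 4.64%).

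Whether the replicate numbers pair the mice is not given by the labels. Same-numbered mice of different groups correlated in their deviations from the group means at -0.46 to 0.55. Differently numbered mice did so at -0.61 to 0.70, so that a pairing is neither shown nor excluded by these values. With the number as a replicate block, members called in CLP versus sham were 0 and pathway genes called were 0, and calls over all genes went from 367 to 46.

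No called difference of edgeR on 12 mice changed direction under any of these alternatives. The differences that did were called neither there nor under the alternative that turned them. The log2 fold change of Ugt3a1 in CLP versus sham, 0.0012, was -0.0012 with DESeq2 on 12 mice, -0.0023 with DESeq2 and -0.0028 with edgeR on 8 mice, -0.21 with library size alone, -0.017 with no filter, -0.30 with voom, -0.077 with the replicate block and -0.25 to 0.23 with a mouse left out. In CLP+DCA versus CLP, Ugt3a2 turned to 0.035 with library size alone and 0.0089 with voom, Sult1b1 to 0.019 with voom, Ugt1a6a to -0.022 and Sult1d1 to -0.054 with the replicate block. With a mouse left out, Ugt3a2 then ranged from -0.29 to 0.11, Sult1b1 from -0.38 to 0.073, Ugt1a6a from -0.17 to 0.18, Sult1d1 from -0.14 to 0.36, Ugt2b35 from -0.0084 to 0.26 and Ugp2 from -0.10 to 0.19. In CLP+DCA versus sham, Sult1a1 turned to 0.39 and Sult2a7 to 0.26 with voom, and Sult2a7 to 0.14 with the block. With a mouse left out, Sult1a1 then ranged from -0.41 to 0.20, Sult2a7 from -0.24 to 0.39, Sult5a1 from -1.19 to 0.032 and the log2 CPM difference of Ugt1a7c from -0.47 to 0.20. Among the genes so followed, Sult1a1, Sult1b1, Sult2a7, Sult5a1, Ugt3a1 and Ugt3a2 each turned without CLP+DCA replicate 3. Outside them, Ugt2b38 turned without that mouse from 0.47 to -0.24 in CLP+DCA versus sham and from 0.17 to -0.54 in CLP+DCA versus CLP. With voom Ugt2b37 turned from 0.37 to -0.43 and from 0.92 to -0.098 in these comparisons, and Ugt2b38 to -0.33 and -0.78. None of these was called. The genes of the summed loci have no value of their own in that fit. Members with few reads, such as Ugt1a7c and Sult1e1 in sham, are limited by depth.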
